A study of Homo sapiens with 8 samples.

Results

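HuR enrichment was compared between IMR90 cells with shADAR1 and IMR90 cells with shControl. Enrichment is the ratio of a gene's counts in the precipitate made with the anti-HuR antibody to its counts in the input of the same line. The quantity compared is the log2 enrichment in shADAR1 minus the log2 enrichment in shControl, so that values above 0 mark genes more enriched in shADAR1. It rests on 4 of the 8 libraries of the series, the precipitate and the input of each line. A gene entered with 50 or more counts in any of these libraries, which kept 13782 of the 57736 listed genes, 12181 of them protein-coding. IMR90 is a diploid line of human fetal lung fibroblasts, shADAR1 cells carry a short hairpin RNA against ADAR1 (gene ADAR), and shControl cells carry a control hairpin. The series also holds a precipitate and input of shHuR cells and an RNA-seq pair of control and ADAR1 knockdown cells, which are used here only beside the main values. Its title puts the question as how loss of ADAR1 is tied to p16INK4a and senescence.

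HuR (gene ELAVL1) is an RNA-binding protein that recognises AU-rich and U-rich stretches, mostly in 3′ untranslated regions, and is known for holding labile mRNAs of cytokines, growth factors and cell cycle regulators in a more stable state. ADAR1 converts adenosine to inosine in double-stranded RNA and also binds RNA without editing it. In fibroblasts, SIRT1 mRNA, which encodes a NAD-dependent deacetylase, is a reported HuR target, and p16INK4a, a product of CDKN2A, holds the retinoblastoma protein active and marks senescent cells.

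The AU-rich pentamer ATTTA, written here as DNA, is one element that HuR and its competitors read. It was searched on the mRNA strand, with overlapping matches counted, in the 3′ UTR of 1 GENCODE 29 transcript per gene, and 71.75% of the 12004 member genes with a 3′ UTR hold at least 1 match. TTTATTT was found in 46.35% of them, and TTTTTTT in 50.18%. These windows from the genes discussed most show the kind of sequence concerned, on GRCh38, 5′ to 3′, with every ATTTA in capitals.
SIRT1 (chr10:67917768-67917792, plus strand): agttcttataATTTAtctttATTTA
SIRT1 (chr10:67917948-67917972, plus strand): ttgctttagtATTTAttacaataaa
CDKN2A (chr9:21968103-21968127, minus strand): cgtagttttcATTTAgaaaatagag
CDKN2A (chr9:21968026-21968050, minus strand): gtaaatgtccATTTAtatcattttt
HIF1A (chr14:61747352-61747376, plus strand): ctttttATTTATTTAtttttggcta
CXCL8 (chr4:73743207-73743231, plus strand): gttatagtaaATTTAttttatttta
CCL2 (chr17:34256953-34256977, plus strand): gttaattcttATTTAagttattgat
The 3′ UTR of SIRT1 (1797 bases, 68.9% A and U) holds 9 matches of ATTTA, that of CXCL8 (1252 bases, 71.3%) 9, that of HIF1A (1173 bases, 70.7%) 8, that of CDKN2A (591 bases, 52.1%) 2, and that of CCL2 (376 bases, 69.7%) 1. The 3′ UTR of FLNA, a filamin described further on, is 323 bases long with 34.4% A and U and holds 0 of all 3 motifs. A match describes these letters and is no measured binding site.

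The 4 libraries held 28390935 to 44578878 counts. ADAR, the gene targeted by the hairpin, had 12890 input and 24868 precipitate counts in shControl and 3142 and 7606 in shADAR1. Markers of fibroblasts summed to 3422 to 9432 TMM-scaled CPM with 0 of 10 genes at 0, while epithelial, endothelial and leukocyte markers summed to 5.08 to 82.2, with KRT5, CDH5 and CD3E at 0 in each of the 4 libraries. A pair of genes without a symbol took 13.6% and 12.8% of the shControl and shADAR1 inputs but 0.167% and 0.443% of the precipitates, and 2.09% of the shHuR precipitate. Each group was 1 library with no replicate, so no test between the lines was possible, and no p-value is given. Intervals are at 95% and cover counting error only. No mock precipitate was used here, and in bulk samples fewer cells of a type and less RNA per cell cannot be told apart.

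Most transcripts kept their place between the lines. The log2 enrichments of the 2 lines correlated across genes at 0.925 (Pearson) and 0.936 (Spearman), with no library shared between them. Genes are not replicates of a condition. The difference was within 1.5-fold for 8811 genes (63.9%), its median was -0.003, and its 5th and 95th percentiles were -0.91 and 1.33. Enrichment was at least 2-fold higher in shADAR1 for 1428 genes (10.4%) and at least 2-fold lower for 493 (3.58%). Of 4515 genes enriched at least 2-fold in shControl and 4234 in shADAR1, 3891 were enriched in both, which is 86.2% and 91.9% of them. The spread of enrichment was narrower in shADAR1, with an SD over genes of 1.81 against 1.99 in shControl. Among the 4352 genes whose mean log2 enrichment over both lines was at least 1, called enriched here, 531 (12.2%) were at least 1.5-fold higher and 636 (14.6%) at least 1.5-fold lower in shADAR1. Higher genes made up 74.3% of the genes called at 2-fold and 45.5% of those called among enriched genes, shares that turned to 59.9% and 57.4% once trends over GC content and transcript length were removed. The plot of enrichment in one line against the other shows these values gene by gene.

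**Figure D1:**
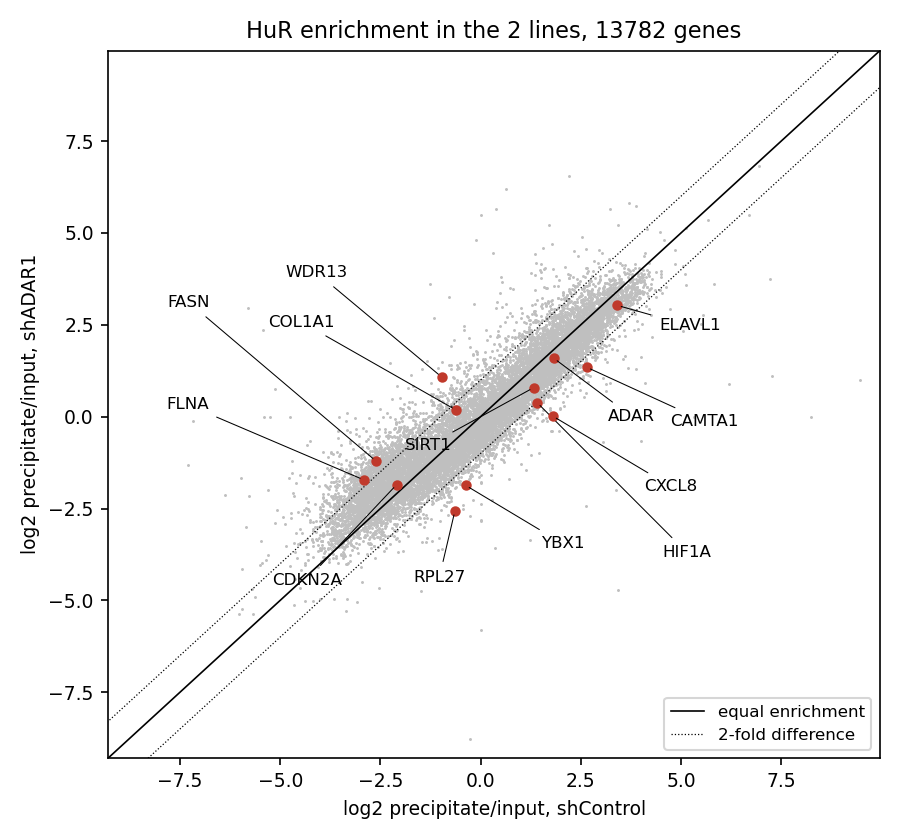
Log2 enrichment (precipitate over input, TMM-scaled) in shControl (x axis) and shADAR1 (y axis) for 13782 genes, 1 library per fraction and line, with the line of equal enrichment and dotted lines at a 2-fold difference. The cloud follows the line of equal enrichment, SIRT1, ADAR, ELAVL1, COL1A1 and CDKN2A lie between the dotted lines, and CXCL8, HIF1A, YBX1, RPL27, CAMTA1, WDR13, FLNA and FASN lie outside them.

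Of the 9 genes of the p16 axis, the knockdown targets and the senescence markers, 0 differed by 2-fold between the lines, 6 stood below 0 and 3 above. Over all members 10.4% were at least 2-fold higher and 3.58% lower. SIRT1 had 1414 precipitate and 1038 input counts in shControl and 639 and 459 in shADAR1. Scaled, this was 48.5 CPM in the shControl precipitate, 19.4 in its input, 20.9 in the shADAR1 precipitate and 12.1 in its input. The input and the precipitate were both lower in shADAR1, with log2 ratios of shADAR1 to shControl of -0.68 and -1.21. Enrichment went from 1.32 to 0.79, a difference of -0.53 (interval -0.75 to -0.32), or 1.45-fold less. The 2 levels move with the scaling of precipitates against inputs. The TMM factors were 0.749 and 0.685 for the precipitates of shControl and shADAR1, and 1.461 and 1.336 for their inputs. A difference lower than that of SIRT1 was seen in 16.4% of all members, and in 34.6% of the members in the same quintile of GC content, whose median was -0.40. With the GC and length trends removed, SIRT1 stood at -0.18. In the shHuR cells, scaled with separate TMM factors, its log2 enrichment was 0.09.

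CDKN2A was depleted from the precipitates of both lines. It had 144 precipitate and 1141 input counts in shControl and 215 and 969 in shADAR1, and its log2 enrichment went from -2.10 to -1.85. The difference of 0.25 (interval -0.09 to 0.59) was not detectable at this depth, and the trend-removed value was -0.39, on the other side of 0. CDKN2A stood above 17.0% of the members in its quintile of GC content, the highest quintile. CDKN2B, which encodes the inhibitor p15, was enriched in both lines and stood at -0.08 (-0.22 to 0.06). CDKN1A, the inhibitor p21, stood at 0.24 (0.20 to 0.28), and at -0.20 with the trends removed. The pocket protein RB1, the substrate whose phosphorylation p16 prevents, was the 1 gene of these called lower among enriched genes, with 6399 and 2783 counts in shControl against 5599 and 2651 in shADAR1 and a difference of -0.69 (-0.78 to -0.59), which was -0.28 with the trends removed.

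ELAVL1, the mRNA of HuR itself, was enriched at 3.41 in shControl and 3.03 in shADAR1, a difference of -0.38 (-0.45 to -0.31). The log2 ratio of the lines was 0.06 in its inputs and -0.32 in its precipitates. ADAR mRNA was lower in input and precipitate alike (log2 ratios -1.54 and -1.77), and its difference was -0.24 (-0.31 to -0.17). LMNB1, the lamin lost in senescence, had 4502 and 1709 counts in shControl and 1499 and 503 in shADAR1, with a difference of -0.39 (-0.56 to -0.22). The bar plots of the 4 libraries show that input and precipitate of SIRT1, LMNB1 and ADAR were lower together. In the separate RNA-seq pair, LMNB1 was higher in the knockdown, with 4620 counts in control, 8771 in knockdown and a log2 ratio of 0.55. SIRT1 (-1.27) and ADAR (-2.79) were lower there too.

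**Figure D2:**
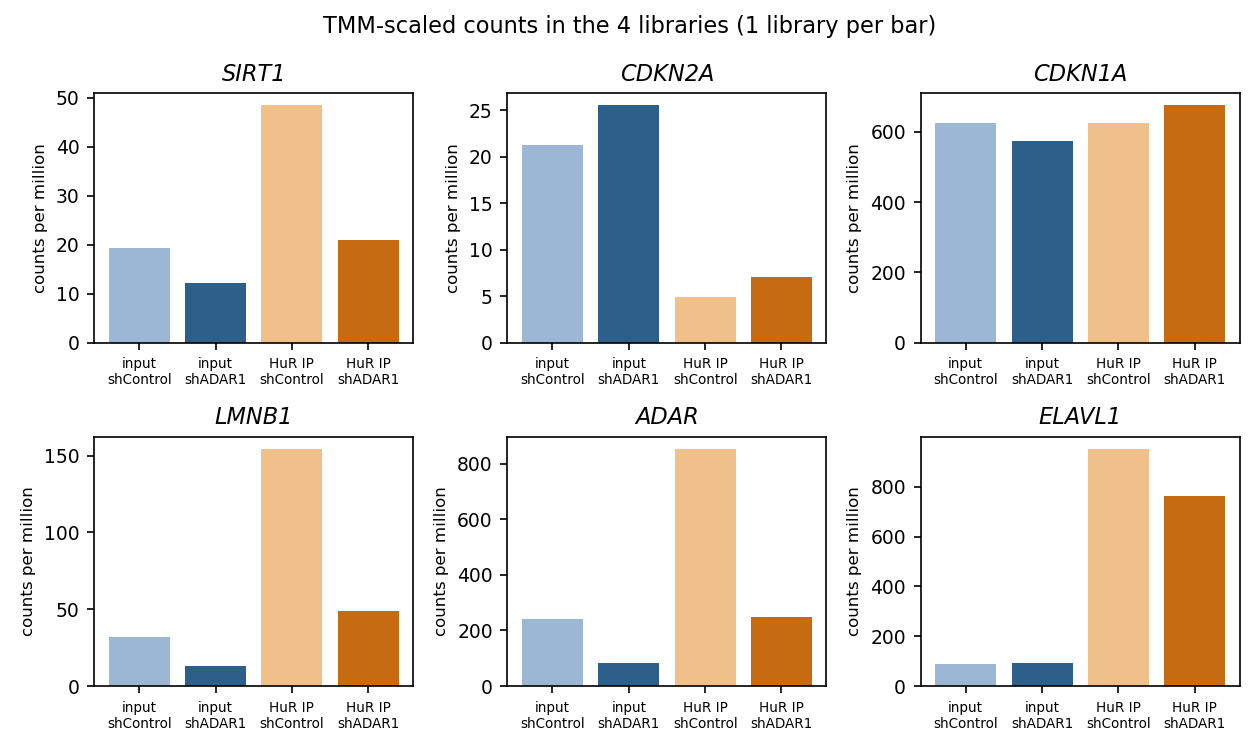
TMM-scaled CPM (y axes, starting at 0, each with its own scale) in the input and HuR precipitate (HuR IP) of shControl and shADAR1 cells, 1 library per bar, for 6 genes. SIRT1 stood at 48.5 and 20.9 in the precipitates and at 19.4 and 12.1 in the inputs of shControl and shADAR1, while CDKN2A was lower in the precipitates than in the inputs of both lines.

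The difference between the lines followed base composition across the transcriptome. Over 13391 genes with a GENCODE 29 transcript, the difference correlated with the transcript's GC content at 0.63 (Spearman, across genes). By quintiles of GC content, groups of equal size from low to high, the median difference was -0.40, -0.27, -0.06, 0.28 and 0.76, from the lowest GC to the highest. In the highest quintile 33.3% of genes were at least 2-fold higher in shADAR1 and 0.597% lower, against 1.34% and 6.20% in the lowest quintile. The same order was seen among enriched genes alone, from -0.39 in the lowest quintile to 0.32 in the highest. Enrichment itself was lower at higher GC content in each line, with Spearman values of -0.50 in shControl, -0.33 in shADAR1 and -0.18 in shHuR. Precipitate and input both took part, since the ratio of the lines correlated with GC content at 0.24 in the precipitates and at -0.29 in the inputs. In the separate RNA-seq pair, which has no precipitation, the ratio of knockdown to control correlated with GC content at 0.41 over 12108 genes. The like quantity here is the ratio of the inputs, whose correlation of -0.29 had the opposite sign. The RNA-seq and input ratios correlated at -0.07 over 12368 genes. The part of base composition in the differences of single genes was not tested.

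**Figure D3:**
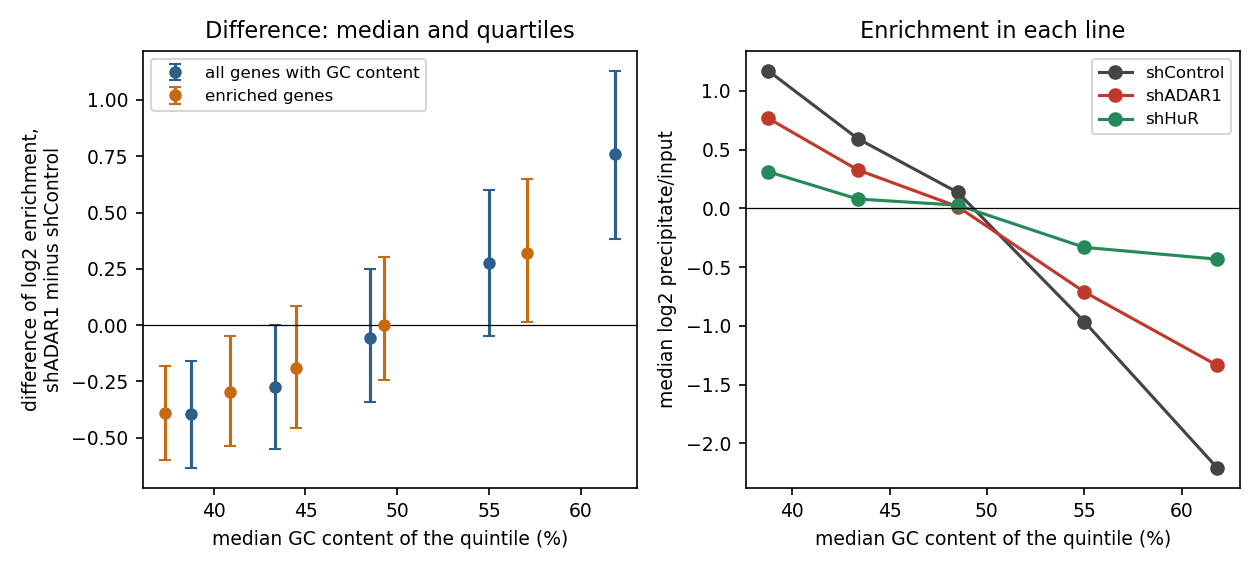
Left, the difference of log2 enrichment (shADAR1 minus shControl; median with lower and upper quartile over genes) in quintiles of transcript GC content, for all genes with a GC content and for enriched genes. Right, the median log2 enrichment in shControl, shADAR1 and shHuR in the same quintiles of all genes, where the shADAR1 line lies below shControl in the AU-rich quintiles and above it in the GC-rich quintiles. The shHuR values were scaled with separate TMM factors.

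Without regard to GC content, AU-rich elements showed the same relation seen from the other side. Median enrichment went up with the number of ATTTA matches in both lines, from -2.04 with 0 matches to 1.64 with 11 or more in shControl, and from -1.48 to 1.39 in shADAR1. The median difference went down over the same classes, from 0.39 (3391 genes) to -0.27 (1441 genes). Within quintiles of GC content the order of the classes varied. Only in the highest quintile was the median lower with 11 or more matches (1 gene) than with 0. In the lowest quintile the median was -0.38 for genes with 0 matches and -0.36 for those with 11 or more. It went from -0.26 to -0.13 in the second quintile, from -0.10 to 0.04 in the middle one, and from 0.27 to 0.45 (17 genes) in the fourth. In the highest quintile it was 0.82 with 0 matches and 0.59 with 3 to 5. Across 12004 genes the difference correlated with the A and U share of the 3′ UTR at -0.63, with the number of ATTTA at -0.39 and with TTTTTTT at -0.26 (Spearman). GC content was not held fixed in these values. Genes ordered by enrichment in shHuR cells, which share no library with this comparison, showed no such order, with medians of 0.01, 0.03, 0.01, -0.05 and 0.00 from the least to the most enriched quintile.

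Reported HuR targets, 32 mRNAs, had a median difference of -0.16, with 0 at least 2-fold higher (10.4% of all members were), 4 lower (3.58% of all members), 11 above 0 and 21 below. PTMA, which encodes the nuclear protein prothymosin alpha, had 59987 precipitate and 20187 input counts in shControl and 13045 and 6120 in shADAR1, a difference of -1.04 (-1.09 to -0.995). HIF1A, the hypoxia-inducible transcription factor, had 19737 and 13654 counts in shControl and 26190 and 24960 in shADAR1, so that its enrichment of 1.41 came down to 0.38, a difference of -1.03 (-1.07 to -0.99). In HIF1A the input was higher in shADAR1 by 1.37 on the log2 scale and the precipitate by only 0.34, while in PTMA both were lower. With the trends removed PTMA (-0.80), HIF1A (-0.63) and the cytokine IL6 (-1.11, and -0.79 with the trends removed) were under 2-fold, and the chemokine CXCL8 was not (-1.21).

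The other HuR targets of this list were within 2-fold. The splicing factor TRA2B stood at -0.84 (-0.97 to -0.71), the cyclins CCNA2 and CCNB1 at -0.59 (-0.82 to -0.36) and -0.36 (-0.64 to -0.08), and nucleolin NCL at -0.46 (-0.52 to -0.40). ACTB, beta-actin, went from 3.90 to 3.69, with 2994327 and 3333484 precipitate counts. The cyclin CCND1 (0.09, 0.07 to 0.11), beta-catenin CTNNB1 (0.02, -0.02 to 0.06), the caspase CASP2 (-0.01, -0.15 to 0.12), VHL (0.01, -0.10 to 0.13), MYC (-0.03, -0.15 to 0.09) and FOS (0.00, -0.23 to 0.24) stood near 0. For FOS this held while input and precipitate were both higher in shADAR1 by 2.80 on the log2 scale. The growth factors VEGFA (0.44, 0.33 to 0.54) and TGFB1 (0.85, 0.64 to 1.06) stood highest, and TGFB1 was depleted in both lines (-2.97 and -2.13).

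Of 14 mRNAs of AU-rich-element-binding proteins, 1 was at least 2-fold lower and 0 higher, against 3.58% and 10.4% of all members. Their median was -0.39, against -0.003 for all members. YBX1, a cold-shock protein that binds mRNA, had 7314 and 17423 counts in shControl and 2148 and 9763 in shADAR1 and stood at -1.50 (-1.58 to -1.42), with -1.51 after the trends were removed. The translational repressor TIA1 (-0.85) and the decay factor ZFP36 (-0.82) followed, and stood at -0.43 and -1.19 with the trends removed. PCBP1 (-0.81, and -1.06 with the trends removed) shares 52.2% of its exon length with other genes and is uncertain. KHSRP (0.29) and ZFP36L2 (0.29) stood highest, and CELF1, enriched at 3.56 and 3.65, stood at 0.10 (0.04 to 0.15).

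Of 28 senescence-associated secretory genes 21 were members, 14 of them with 50 counts in a shControl library and 7 only through the shADAR1 libraries. Their median difference was -0.72 over 21 members, with 5 at least 2-fold lower (3.58% of all members were), 1 higher (10.4% of all members), 16 below 0 and 5 above. With 50 counts required in each library it was -0.56. Their median log2 ratio of shADAR1 to shControl was 2.75 in the inputs and 1.71 in the precipitates, values that the 7 members selected through shADAR1 help to set. CXCL8 had 53 precipitate and 26 input counts in shControl and 3365 and 4136 in shADAR1, so that its log2 enrichment went from 1.80 to 0.02, with a difference of -1.89 (-2.63 to -1.18). CCL2, a monocyte chemokine, had 3212 and 691 counts in shControl and 10201 and 3287 in shADAR1, and its difference was -1.15 (-1.28 to -1.02), or -0.76 with the trends removed. The binding protein IGFBP3 (418 and 420 counts against 11672 and 14700) stood at -0.89 (-1.09 to -0.69). CXCL6 and MMP3 were called lower on 1 and 2 counts in the shControl input, and CXCL3 was called higher on 2 counts in the shControl precipitate, and their intervals of -8.49 to 0.87 for CXCL6 and -0.56 to 4.92 for CXCL3 include 0. IGFBP5, at 205501 and 704682 precipitate counts, was enriched in both lines (2.67 and 2.28). EREG, an EGF-family ligand, was too (2.74 and 2.37), and IL11 was level (1.04 in both lines). The median with GC and length trends removed was -0.49.

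Interferon-stimulated genes, which ADAR1 loss is known to induce through sensing of unedited double-stranded RNA, had a median of -0.25 over 28 members, with 4 at least 2-fold lower and 3 higher, against 3.58% and 10.4% of all members. Of the 28, 5 had 50 counts only in the shADAR1 libraries, so no median ratio of the lines is read from the list. OAS1 and OASL had 0 counts in both shControl libraries, so no difference can be given although the added prior count of 2 puts them among the 4. IFI6 (728 and 172 counts in shControl, 6309 and 1129 in shADAR1) kept its enrichment, at 2.94 and 2.79. IFIT5 was the most enriched member (3.54 and 3.03; difference -0.50, -0.62 to -0.39) and the transcription factor STAT2 stood at 0.39 (0.33 to 0.44). ISG15, a ubiquitin-like modifier, was called higher, at 1.17 (0.53 to 1.85), and stood at 0.20 with the trends removed. MX1 was called lower, at -1.17 (-2.12 to -0.20), on 23 and 27 precipitate counts. The intervals of the other called members, IFI44L (-0.17 to 2.29), IFI44 (-2.50 to 1.37) and OAS2, which had 0 counts in the shControl precipitate, include 0.

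**Figure D4:**
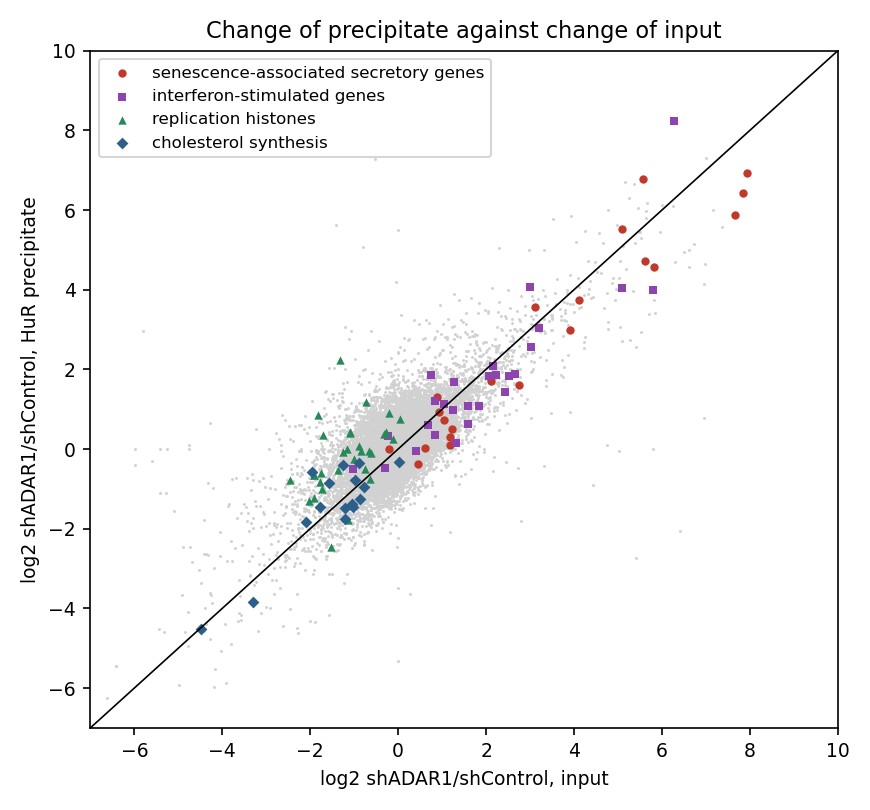
Log2 ratio of shADAR1 to shControl in the input (x axis) and in the HuR precipitate (y axis) for 13782 genes (grey), with members of 4 lists in colour and the line of equal change. Most secretory genes lie to the right of 0 and below the line, and most replication histones lie to the left of 0 and above it.

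The 2 fractions did not change by the same amount where the input changed most. For 391 genes at least 4-fold higher in the shADAR1 input, the median ratio was 2.77 in the inputs and 2.55 in the precipitates, with a median difference of -0.37. For 297 genes at least 4-fold lower there, it was -2.58 and -1.84, with a median difference of 0.92. The precipitate ratio had the input's sign in 380 and 272 of them. The input counts enter both the grouping and the difference, so these values are not independent of each other.

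Replication histone mRNAs, known for ending in a stem-loop without a poly(A) tail, stood higher in shADAR1. Of 31 members 13 were at least 2-fold higher (10.4% of all members were) and 0 lower, 28 were above 0 and 3 below, and the median was 0.83, or 0.61 with the trends removed. H4C8 and HIST2H2BB alone had a mean log2 enrichment above 0, and the list medians were -2.95 in shControl and -1.95 in shADAR1. H2AC11 had 283 precipitate and 2001 input counts in shControl and 377 and 433 in shADAR1 and stood at 2.06 (1.78 to 2.33). H4C11 (182 and 4887 against 189 and 1552) stood at 1.14 (0.83 to 1.46), and at 0.22 with the trends removed. The precipitate was nearly level over the list (median ratio -0.07) and the input lower (-1.13). In the separate RNA-seq pair all 31 members were higher in the knockdown, with log2 ratios of 0.55 to 2.31, and over all genes the input ratio and the RNA-seq ratio correlated at -0.07 (Spearman, 12368 genes). H4C8 (-0.64) and H2BC13 (-0.99) went the other way. H3C14 and H3C15, both among the 13 higher, had identical counts and are near-identical copies, so histone members are uncertain one by one. The 13 also hold HIST2H2BB, an annotated pseudogene with 67.9% of its exon length shared, and H2AC25, with 0 and 6 precipitate counts. The GENCODE 29 transcript taken for H2AC11 has a 3′ UTR of 1827 bases, and which transcript form its counts come from is not known. Of 30 cell cycle genes, whose inputs were also lower (median -1.16), 1 was called higher, E2F1 (1.03, 0.57 to 1.49; 0.29 with the trends removed), and 1 lower, the cyclin CCNE2 (-1.20, -1.68 to -0.71), with a median of -0.04. These calls stand beside 10.4% of all members higher and 3.58% lower. The median ratio of the precipitates of the cell cycle genes was -1.33. In the RNA-seq pair, 24 of the 30 cell cycle genes were higher in the knockdown, with log2 ratios of -1.17 to 1.22 over the list. The inputs and the RNA-seq pair thus differed in direction for most of these genes.

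Noncoding RNAs of known structure were few: 12 of 18 were found in the file, and 6 of these had enough counts. Of the 6, 4 were at least 2-fold higher, as were 10.4% of all members. Their median was 1.10, and 0.09 with the trends removed. TERC was called higher on 19 and 9 precipitate counts, and its interval of -0.32 to 2.45 includes 0. RNU4-2 (9 and 32 precipitate counts) and SCARNA10 (20 and 45) were called on few counts as well. TERC and SCARNA10 share 80.96% and 75.15% of their length with another gene. RMRP, the RNA of RNase MRP, had 605 and 11729 counts in shControl and 783 and 5080 in shADAR1 and stood at 1.01 (0.85 to 1.18), with 98.5% of its length shared with another gene. Among 18 long noncoding RNAs 2 were called higher and 0 lower, against 10.4% and 3.58% of all members. SNHG16 was the most enriched (4.50 and 3.98) and stood at -0.52 (-0.57 to -0.47), close to the nuclear RNAs MALAT1 (-0.51, -0.55 to -0.48) and NEAT1 (-0.50, -0.58 to -0.41). NORAD, a cytoplasmic RNA bound by Pumilio proteins, stood at -0.20 (-0.23 to -0.16).

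Transcripts reported as edited by ADAR1 had a median of 0.09 over 24 members, with 3 at least 2-fold higher and 0 lower, against 10.4% and 3.58% of all members. FLNA, filamin A, had 9716 precipitate and 134381 input counts in shControl and 34261 and 140497 in shADAR1, and its depletion eased from -2.91 to -1.72, a difference of 1.19 (1.15 to 1.22). With the trends removed FLNA stood at 0.26, and before that step 78.5% of the members in its GC quintile stood below it. The kinase MAPK13 stood at 1.12 (0.81 to 1.43) and the Hedgehog factor GLI1 at 1.76 (0.33 to 3.14), the latter on 15 and 11 precipitate counts. Members known for edited Alu repeats in their 3′ UTRs lay on both sides of 0. The adaptor MAVS stood at 0.43 (0.35 to 0.51) and MDM4 at 0.09, while NUP43 (-0.09), the RNA-activated kinase EIF2AK2 (-0.11), the inhibitor XIAP (-0.17), the ubiquitin ligase MDM2 (-0.18) and PSMB2 (-0.38) stood below. With the trends removed, PSMB2 alone of these 7 stayed below 0 (-0.19), and the others stood at 0.07 (MAVS), 0.21 (MDM4), 0.23 (NUP43), 0.12 (EIF2AK2), 0.09 (XIAP) and 0.20 (MDM2). AZIN1, edited in its coding sequence, stood at -0.28 (-0.34 to -0.21), and SRP9 was lowest at -0.79 (-0.86 to -0.71).

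Of 40 collagens and matrix genes 5 were at least 2-fold higher and 2 lower, with a median of -0.05, near the shares of 10.4% and 3.58% over all members. The small proteoglycans LUM (390 and 563 counts against 635 and 1669; -1.43, -1.66 to -1.20) and DCN (-1.15, -1.23 to -1.07), whose inputs were higher by 2.06 and 1.74, were the 2 lower, and stood at -0.93 and -0.84 with the trends removed. COL16A1 (1.55, 1.24 to 1.85), COL7A1 (1.37), COL18A1 (1.35), COL9A2 (1.93, 0.67 to 3.26) and COL5A3 were the 5 higher, all under 2-fold with the trends removed. COL5A3 stood at 1.87 (-0.22 to 3.75) on 11 and 5 precipitate counts, an interval that includes 0. COL1A1 (47133 and 132786 against 98639 and 108169) stood at 0.80 (0.78 to 0.82) and at -0.01 with the trends removed. Of 24 actin and contractile genes FLNA alone was called at 2-fold. The actin-sequestering peptide TMSB4X (-0.81, -0.82 to -0.79), calponin CNN3 (-0.68) and tropomyosin TPM3 (-0.58) were enriched in both lines and stood lower. TMSB4X and CNN3 were the 2 of 7 enriched members called lower at 1.5-fold, against 14.6% of all enriched genes.

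Among 26 cargo receptors and translocon subunits of the secretory pathway, the median was -0.30, with 1 higher (TMED1, 1.30, 0.59 to 2.02; 51.3% of its length shared) and 1 lower (KDELR3, -1.01, -1.17 to -0.86). With the trends removed both genes were under 2-fold, at 0.66 and -0.74. Over all members 10.4% were at least 2-fold higher and 3.58% lower. TMED2, the most enriched by its mean over both lines (3.26 in shADAR1), stood at -0.54 (-0.58 to -0.50), or -0.12 with the trends removed. Cholesterol synthesis had 1 of 16 members called, the fatty acid synthase FASN (1662 and 18657 counts against 1171 and 3371; 1.40, 1.28 to 1.52; 0.26 with the trends removed). The desaturase SCD was lower in both fractions (log2 ratios -4.49 and -4.53) and kept its enrichment (-0.04, -0.13 to 0.06). Of 20 immediate early genes 0 were called at 2-fold in either direction. Among the 7 enriched ones, IER2 (0.97, 0.84 to 1.09) and FOSL2 (0.86, 0.80 to 0.91) were at least 1.5-fold higher and 0 lower. Over all enriched genes 12.2% were higher and 14.6% lower. With the trends removed, IER2 stood at 0.26 and FOSL2 at 0.54. Of 6 sirtuins with enough counts, 5 stood above 0 and SIRT1 alone below. With the trends removed SIRT6 (-0.43) also stood below 0, lower than SIRT1 (-0.18), and the others stood above. SIRT7 was called higher (25 and 420 counts against 48 and 177; 1.62, 0.84 to 2.43; 0.90 with the trends removed), and SIRT5, the only other enriched sirtuin, stood at 0.11 (-0.12 to 0.35).

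Housekeeping families stood close to the median of all members, of which 10.4% were at least 2-fold higher and 3.58% lower. Cytosolic ribosomal proteins (84 genes, median 0.13) had 4 higher and 3 lower. RPL27 had 607 precipitate and 1743 input counts in shControl and 147 and 1091 in shADAR1 and stood at -1.94 (-2.23 to -1.65). Such genes have near-identical copies, so RSEM may split their reads unevenly and the values of single members are uncertain. Nuclear-encoded respiratory chain subunits (76 genes, median 0.09) had 6 higher, led by NDUFA11 (1.46, 1.09 to 1.84), and 3 lower, led by NDUFB4 (-1.28, -1.60 to -0.96). All 6 were under 2-fold with the trends removed. Proteasome subunits (36 genes, median 0.01) had 0 higher and 1 lower, PSMA1 (-1.16, -1.35 to -0.98; -0.89 with the trends removed). ZNF genes (424 genes, median -0.07) had 33 higher and 11 lower, and among the 164 enriched ones 10 were higher and 20 lower by 1.5-fold. Over all enriched genes 12.2% were higher and 14.6% lower by 1.5-fold.

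**Figure D5:**
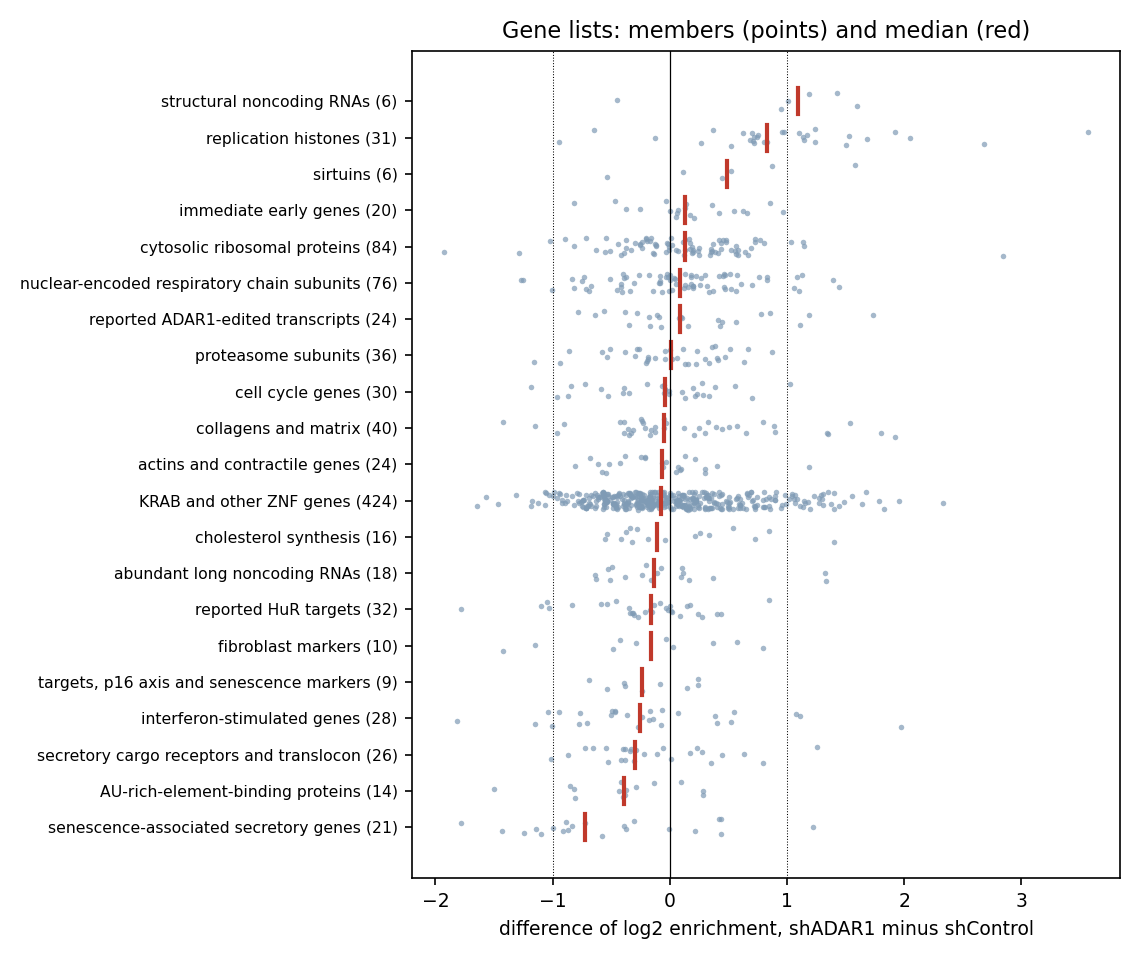
Difference of log2 enrichment (x axis, shADAR1 minus shControl, prior count 2) of each member (points) of lists with at least 6 members, with the list median in red and dotted lines at 2-fold. Medians run from -0.72 for senescence-associated secretory genes to 1.10 for structural noncoding RNAs, and the lists' points overlap one another.

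The largest differences of all belonged to genes whose counts are hard to assign. Of the 10 highest and 10 lowest genes by the limit of the counting interval nearest to 0, many were pseudogenes (SLC2A3P1, RPL22P1, PKD1P3, PKD1P1, RAB43P1, HMGB1P6), antisense genes (GOLGA4-AS1, PHLDA1-AS1) or readthrough genes (SLX1A-SULT1A3, BLOC1S5-TXNDC5, INMT-MINDY4), and all of these are uncertain. AMIGO3, with 238 precipitate and 0 input counts in shControl and 431 and 248 in shADAR1, was at least 67.5-fold lower against a floor of 3 counts in the shControl input, but shares nearly all of its exon length with other genes. The transporter gene MFSD3 (8 and 452 counts against 54 and 197; 3.39, 2.27 to 4.69) and NDRG2 (44 and 56 against 77 and 5; 3.73, 2.25 to 5.49) were among the higher ones and had little shared length, the latter with 5 counts in the shADAR1 input. In all, 153 members had 0 counts in one of the 4 libraries, and 112 of these were called at 2-fold.

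Protein-coding genes with at least 50 counts in each library and at most 50% of their exon length shared were ranked by the same limit, a set chosen after the values were seen. Among the highest were WDR13, MED16, TMEM141, H2AC11, ARSA, HELZ2, STOML1, POLR2J2 and GTPBP6. WDR13, a WD-repeat protein, had 543 and 1965 counts in shControl and 1035 and 607 in shADAR1, and its log2 enrichment went from -0.97 to 1.08, a difference of 2.06 (1.86 to 2.26). MED16, a Mediator subunit, stood at 2.06 (1.85 to 2.27), and the lysosomal sulfatase ARSA at 1.91 (1.70 to 2.12), or 0.95 with the trends removed. The lowest were RPL27, FABP5, ULBP1, DNAJC25, BTF3, YBX1, SMN2, EIF1B, ING3 and PRR16. ULBP1, a ligand of the natural killer receptor NKG2D, had 226 and 67 counts in shControl and 197 and 167 in shADAR1, so that the precipitate was nearly level while the input was higher, with a difference of -2.08 (-2.60 to -1.57). BTF3, a subunit of the nascent-chain complex, had 11756 and 11573 counts in shControl and 2955 and 5752 in shADAR1 and stood at -1.55 (-1.62 to -1.47). SMN2 has a near-identical copy and is uncertain.

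Among enriched genes of that set, CAMTA1, a calmodulin-binding transcription activator, had 4264 and 1249 counts in shControl and 1708 and 835 in shADAR1, and its enrichment of 2.65 came down to 1.34, a difference of -1.30 (-1.46 to -1.15), or -1.45 with the trends removed. AP3S1 (-1.10, -1.18 to -1.01), a subunit of an adaptor complex of vesicles, VPS4B (-1.04, -1.15 to -0.93), a membrane-scission ATPase, and SEPTIN10 (-1.04, -1.14 to -0.94) were lower too. TFPI, an inhibitor of coagulation, stood at -1.03 (-1.12 to -0.95) with input and precipitate both higher. On the higher side, the palmitoyltransferase ZDHHC24 (777 and 631 counts against 1738 and 330) stood at 1.53 (1.30 to 1.76). PCNX3 (1.27, 1.18 to 1.35), TOR4A (1.26, 1.14 to 1.37) and PACS2 (1.12, 1.03 to 1.21) were higher as well, but stood at 0.27, 0.11 and 0.10 with the trends removed.

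A change in enrichment can come from either fraction. In these counts, alone means that the other fraction did not pass 1.5-fold in the direction that adds to the difference. That other fraction may still have moved in the opposite direction. A gene with both fractions lower or both higher is therefore counted under the fraction that moved more. Of the 1428 genes at least 2-fold higher, the precipitate alone was 1.5-fold higher in 612, the input alone 1.5-fold lower in 571, both in 213 and neither in 32. Of the 493 lower genes, the precipitate alone was lower in 264, the input alone higher in 198, both in 23 and neither in 8. Among enriched genes, the 636 lower ones had the precipitate alone lower in 210 and the input alone higher in 271, against 9 with both and 146 with neither. SIRT1, which is in neither set of called genes, had both fractions lower, and CXCL8 and CCL2 had both higher.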

How the data were processed

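Per the labels' protocols, RNA was precipitated with an anti-HuR antibody (Magna RIP kit) and the KAPA RNA HyperPrep kit was used for the libraries. The authors deposited RSEM expected counts per gene as whole numbers, with RSEM 1.2.3 and the builds hg19 and GRCh37, per the submitters' processing notes. The aligner, annotation and strand setting are not given in the sources used here. From these counts, edgeR 4.0.16 (R 4.3.3) gave TMM factors over the 4 libraries. Enrichment in shHuR cells used separate factors, taken over the precipitates and inputs of all lines together. The RNA-seq ratio used factors over its own pair. Levels in shHuR are thus not on exactly the scale of the other lines. Lists, calls and medians used log2 values with a prior count of 2, and values printed for single genes used no prior count, with an exact conditional interval (a normal limit above 20000 counts). Intervals and the floor of 3 counts cover counting error only. Calls were 2-fold over all members and 1.5-fold among enriched ones, and the script was tested on simulated data. Trends over GC content and length (GENCODE 29, GRCh38, matched for 13391 members) were removed with cubic fits. Beyond the lists, the genes named were the 10 in each direction of each call, ranked by the interval limit nearest to 0, and in each list up to 4 of the largest and 2 of the smallest differences, with others for their role or level. The members and lists were chosen with earlier results of these data known. Symbols were found for 38695 of the 57736 identifiers. Alternatives were total-count scaling, DESeq2 1.42.0 size factors, median centring, other prior counts, other count minimums and the removed trends. Mitochondrially encoded mRNAs were not analysed here, and some genes and 1 list are not reported here.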

Additional observations from a re-analysis of the deposited data

Results flagged for a closer look

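A few genes lay on opposite sides in the 2 lines, at least 2-fold enriched in one and at least 2-fold depleted in the other. There were 6 genes enriched in shControl and depleted in shADAR1, and 9 genes the other way, and the difference between the lines was not tested. The first set held RAB43P1, SLX1A-SULT1A3, SLC39A8, SCHIP1 and 2 genes without a symbol. SCHIP1 went from 1.27 to -1.05 on 5 precipitate counts in shADAR1. RAB43P1 and SLX1A-SULT1A3 had 0 counts in a library, so the prior count helps to set their side. SLC39A8 had only 3 precipitate and 1 input counts in shControl. The second set held QRICH2, LINC02575, ZSWIM9, PCDHGC5, SLC2A3P1 and 4 genes without a symbol. QRICH2 went from -1.07 to 1.33 and ZSWIM9 from -1.73 to 1.14, with 28 and 22 input counts in shADAR1. LINC02575, PCDHGC5 and SLC2A3P1 had 0 counts in a library. In both sets some genes without a symbol had 0 counts in a library too. SLC2A3P1 and SLX1A-SULT1A3 share 100% and 85.25% of their exon length with other genes and are uncertain.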

How the results depend on the processing

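Higher genes outnumbered lower ones at 2-fold under each setting tried. Among enriched genes the balance turned from 531 higher and 636 lower to 609 and 575 with DESeq2 size factors, 795 and 783 with a minimum of 20 counts, and 417 and 310 with GC and length trends removed. Total-count scaling gave 315 enriched genes higher and 332 lower, since the threshold on mean enrichment moves with the scaling. With GC and length trends removed, 549 genes were 2-fold higher and 368 lower. A minimum of 200 counts gave 906 higher, 257 lower and 281 enriched higher. A minimum of 50 counts in each library gave 609, 207 and 233. An alternative chosen after seeing the data, protein-coding genes with little shared exon length and 50 counts in each library, gave 536 higher, 181 lower, 182 enriched higher and 411 enriched lower. Removing the trends changed the sign of CDKN2A and CDKN1A. It also did so for other list members, among them COL1A1, NUP43, EIF2AK2, XIAP and MDM2, and for 3 of 25 list medians. Just above the count minimum, 286 genes with a top count of 50 to 59 had a median difference of 0.19, and 406 just below it, with 40 to 49, had 0.33. No paired analysis was possible because each line had 1 library per fraction and no test was made. The depth limits genes with few counts in any of the 4 libraries.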
